A study of Mus musculus with 8 samples.

Results

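The genes described here are 10 parts of the interleukin-7 (IL-7) receptor pathway: the receptor chains Il7r and Il2rg, the kinases Jak1 and Jak3, the transcription factors Stat5a and Stat5b, and the feedback inhibitors Socs1, Socs2, Socs3 and Cish. They were chosen by their role, matched by symbol to the Ensembl identifiers of the count tables, and make up 10 of the 41214 genes listed there. All 10 passed the filter on low counts that left 16456 genes for testing. The series profiled spleen tumours of C57Bl6 mice by mRNA sequencing. Tumours labelled as CD4+ T cell and as B cell each carried either Miz1 without the POZ domain (deltaPOZ) or intact Miz1 (wt). The 4 groups were T deltaPOZ, T wt, B deltaPOZ and B wt, with 2 libraries each, and each library came from a mouse of its own. The labels give neither the ages of the mice, nor what started the tumours, nor what drives the deletion. Names of the deposited T tables carry the tag Notch, and those of T deltaPOZ also the tag ENU, which the labels do not explain.

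IL-7 binds a receptor made of the alpha chain, encoded by Il7r, and the common gamma chain, encoded by Il2rg. JAK1 sits on the alpha chain and JAK3 on the gamma chain, and once active they phosphorylate STAT5A and STAT5B, which then enter the nucleus. STAT5 induces Cish and several Socs genes, whose proteins dampen the same receptors. The pathway is known for the survival and growth of early B and T cells. Miz1, the zinc finger factor encoded by Zbtb17, has been reported to hold Socs1 down in mouse B cell precursors, and Miz1 proteins bind each other through the POZ domain.

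The libraries held 44.3 to 58.3 M gene counts, so that 3 counts corresponded to 0.0515 to 0.0677 CPM (counts scaled to a common library total). Levels below are CPM scaled by normalization factors of 0.929 to 1.087. Cd3e, a T cell receptor complex gene, ran at 78.5 to 93.4 CPM in the T tumours and at 0.332 or less in the B tumours, while the B cell receptor gene Cd79a ran at 1.35 to 9.99 CPM in the T tumours and at 40.7 to 155 CPM in the B tumours. The T tumours held Cd4 (98.8 to 432 CPM) but also more Cd8a (356 to 1246 CPM), so the CD4+ label alone does not describe them. Summed levels of 7 erythroid markers were 3409 to 17949 CPM in the T libraries and 4.47 to 209 CPM in the B libraries. Zbtb17 did not pass in either lineage in the edgeR test (-0.25 ± 0.23, log2 fold change ± SE, adjusted p = 1 in T; -0.07 ± 0.23, adjusted p = 0.926 in B), and a count over the whole gene says little about the deleted part. Sex followed genotype in the B tumours, with Xist at 0.936 and 0.757 CPM in B deltaPOZ and 975 and 1477 CPM in B wt. B wt 2 held the most neutrophil marker RNA of the B libraries (717 CPM), T wt 1 stood apart in Xist (1246 CPM), and T deltaPOZ 2 registered 25387 genes where the other libraries registered 18339 to 21078. These 3 libraries were left out together in an added fit.

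Most of the pathway genes differed between the T and the B tumours. Il2rg, Stat5a, Stat5b, Socs1, Socs3 and Cish were higher in T than in B tumours, and Il7r and Socs2 were lower, while Jak1 and Jak3 did not pass. Thus 8 of 10 passed an adjusted p of 0.05 (edgeR quasi-likelihood test, Benjamini-Hochberg over all 16456 genes), 6 higher and 2 lower. Of all genes 35.3% passed, 19.3% higher and 16% lower. The same 8 genes had no overlap between the 4 T and the 4 B libraries, in which T lay above B for 20.1% of all genes and below B for 17%. The median log2 fold change of the pathway genes was 1.36, against 0.05 over all genes. Without the 3 libraries named above, 5 of the 8 calls held, those of Il7r, Socs2, Stat5b, Il2rg and Cish. In the deposited table names the B and T libraries carry different run numbers, and the T names carry the tag Notch. Lineage, run and whatever that tag stands for therefore cannot be told apart. In whole tumour tissue, fewer cells of a type and less RNA per cell also cannot be told apart.

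**Figure D1:**
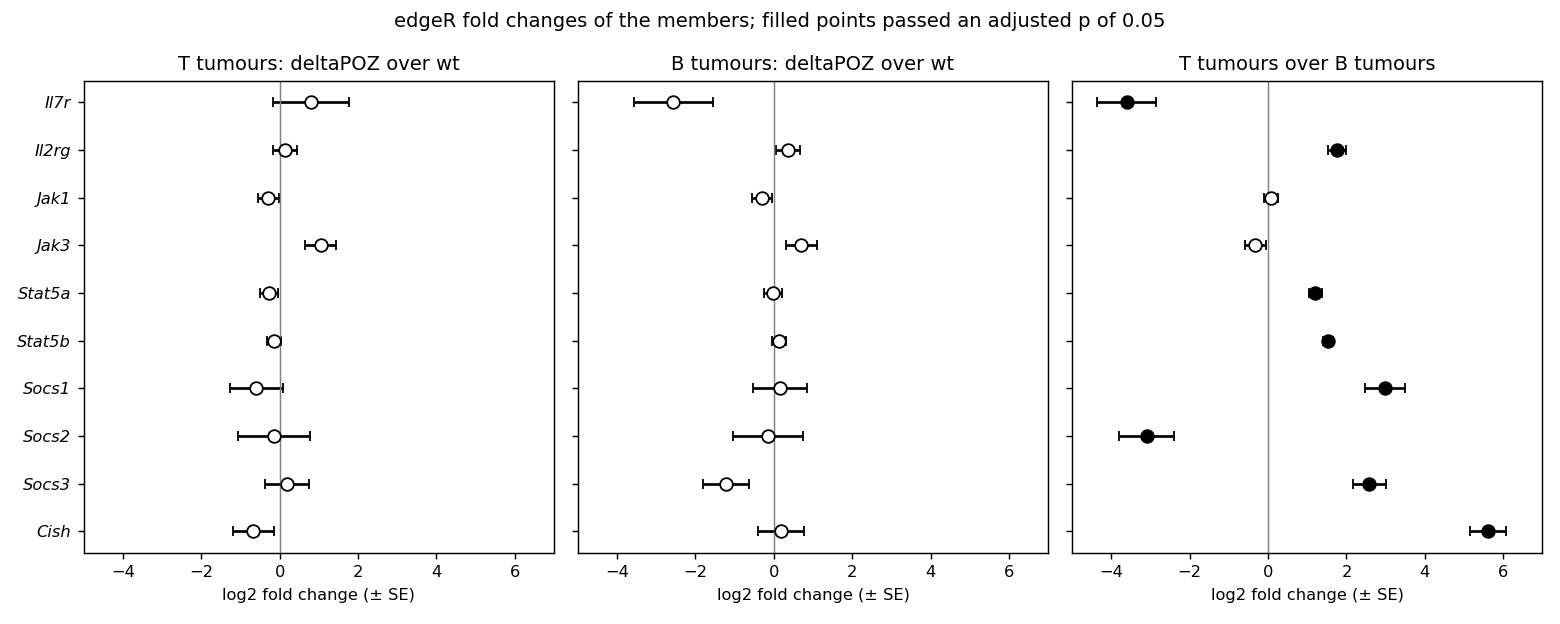
Log2 fold changes of the 10 genes (x axis, bars are ± SE from edgeR) for deltaPOZ over wt in T tumours, deltaPOZ over wt in B tumours, and T over B tumours. Filled points passed an adjusted p of 0.05: 8 genes did so in the right panel and none in the other panels, where the bars are widest for Il7r, Socs1 and Socs2.

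For deltaPOZ against wt none of the 10 genes passed the threshold. The tag ENU followed genotype in T and sex followed it in B, so these cannot be told apart from the deletion. By edgeR 0 of 10 passed in T, where 0% of all genes did, and 0 of 10 passed in B, where 0.00608% did. At an unadjusted p under 0.05 there was 1 of the 10 in T (Jak3), where 2.65% of all genes lay under it, and 1 in B (Il7r), where 12.1% did. DESeq2 and limma-voom also called 0 of the 10 in either lineage. Over all genes DESeq2 called many more than edgeR in both lineages, with the counts given below under the dependence on processing. Nor did any pass for the mean of both lineages or for the difference between them, with 0% of all genes passing in each and 1 of the 10 at an unadjusted p under 0.05 in each, which 8.9% and 6.26% of all genes reached. Il7r and Jak3 had the largest deltaPOZ fold changes relative to their standard errors and are described first within their groups. With 2 libraries a group and a biological coefficient of variation of 0.45 over all genes, a p that missed the threshold does not show that levels were alike.

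**Figure D2:**
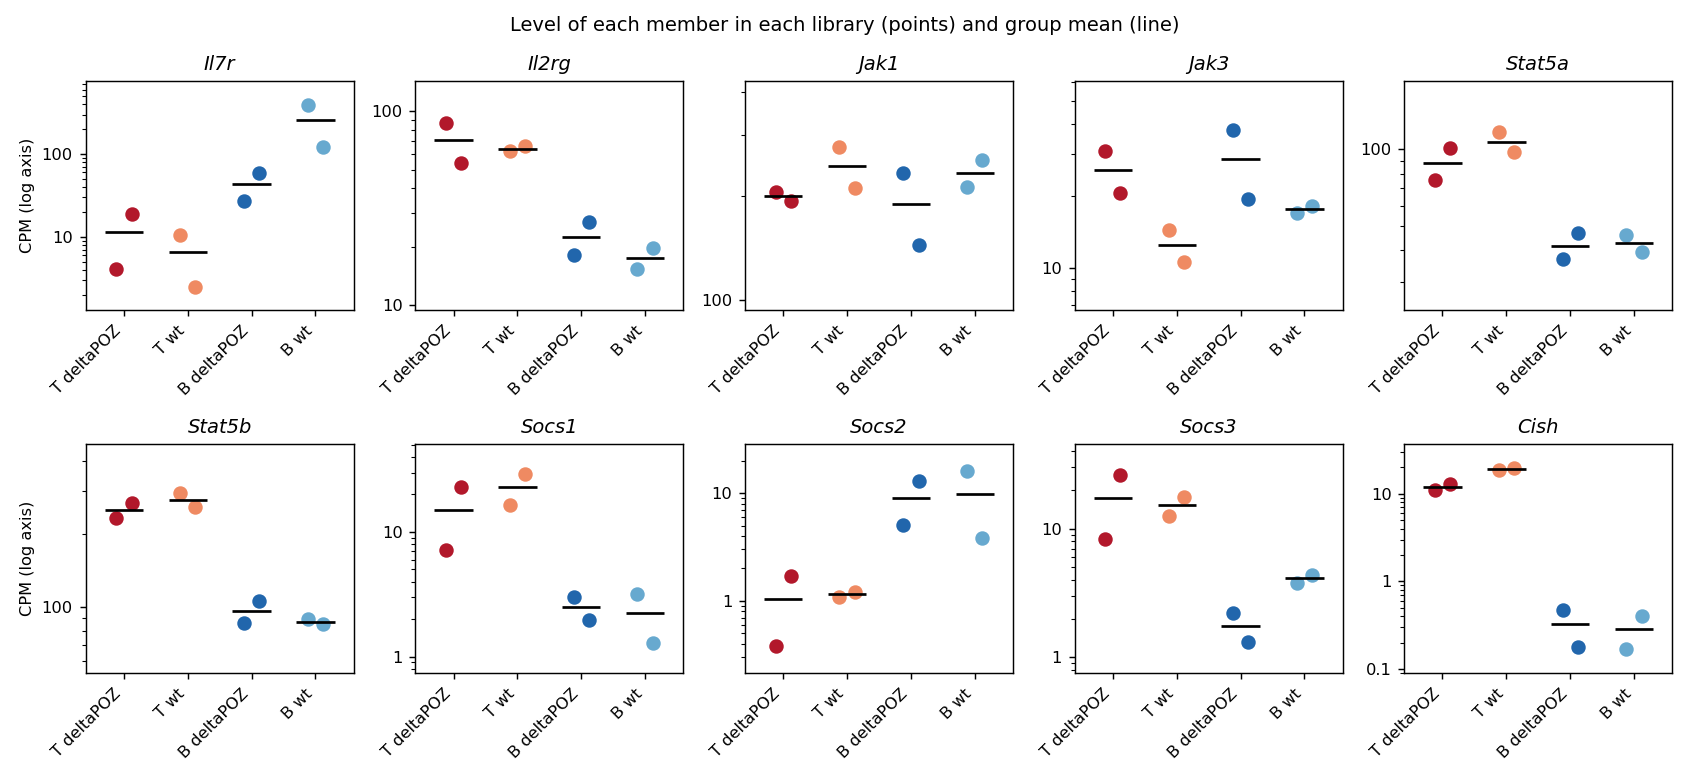
CPM (log axis) of each of the 10 genes in each library (points) with the group mean (line), for T deltaPOZ, T wt, B deltaPOZ and B wt. The T and B points do not overlap in 8 panels, and the widest spread within a group is seen for Il7r, Socs1, Socs2 and Socs3.

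Il7r encodes the alpha chain that gives the receptor its specificity for IL-7 (ENSMUSG00000003882, GRCm38 chr15:9505788-9530176, minus strand). It read 4.12 and 18.8 CPM in T deltaPOZ, 10.6 and 2.51 in T wt, 27.3 and 59.7 in B deltaPOZ, and 395 and 121 in B wt. Every T library lay below every B library, and within B both deltaPOZ libraries lay below both wt libraries, as they did for 19.1% of all genes. The group means were 11.5 ± 10.4 CPM in T deltaPOZ, 6.57 ± 5.75 in T wt, 43.5 ± 22.9 in B deltaPOZ and 258 ± 194 in B wt (SD, n = 2 each). The log2 fold change of T over B was -3.61 (SE 0.75, edgeR adjusted p = 0.0116), the mean over the B libraries being 16.7-fold that over the T libraries. That fold change lay between -4.35 (without T deltaPOZ 2) and -3.06 (without B wt 1) when each library was left out, and was -5.38 without the 3 libraries.

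For deltaPOZ against wt in B, the Il7r log2 fold change was -2.57 (SE 1.01, edgeR adjusted p = 0.392), a 5.92-fold higher mean in B wt. It was -1.47 without B wt 1 and -3.24 without B deltaPOZ 2, and the adjusted p lay between 0.328 and 0.793 over the 8 fits that each left out 1 library. In T it was 0.81 (SE 0.97, edgeR adjusted p = 1) with overlapping libraries. The difference between the effects in T and in B was 3.37 (SE 1.39, edgeR adjusted p = 0.795), so the lineages were not shown to differ. Over the 44 neighbours of Il7r within 5 Mb the median in B was -0.09.

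Genes of precursor B cells also read low in B deltaPOZ, though none passed. All 8 of a list of precursor B genes had negative fold changes in B, with a median of -4.59 and 5 at an unadjusted p under 0.05, where 12.1% of all genes lay. Their summed level was 967 and 60.1 CPM in B deltaPOZ and 1760 and 608 CPM in B wt, so the genotypes overlapped in the sum. The list was chosen with earlier results of these data known and is not particular to B tumours. It summed to 54.4 and 1590 CPM in T deltaPOZ and 1105 and 1642 CPM in T wt. Of its genes 2 were called higher in T than in B tumours, Dntt (8.33) and Arpp21 (9.24), and 2 lower, Vpreb1 (-4.58) and Igll1 (-6.89). Rag1 (-1.10) and Rag2 (-1.36) of the same list had unadjusted edgeR p of 0.571 and 0.467. Igll1 and Vpreb1 encode the surrogate light chain of the precursor B cell receptor. Igll1 read 0.039 and 3.35 CPM in B deltaPOZ against 42.3 and 32.0 in B wt, and Vpreb1 read 0.0585 and 0.937 CPM in B deltaPOZ against 19.3 and 21.9 in B wt. The B lineage list had 7 of 7 negative fold changes in B, and its summed level was 1848 and 1721 CPM in B deltaPOZ and 2847 and 2219 CPM in B wt. In the T tumours the Il7r levels ran in the same order over the 4 libraries as the summed B lineage markers, which stood at 71.0 and 101 CPM in T deltaPOZ and 77.7 and 19.5 CPM in T wt. Markers of some other cells also read lower or higher in B deltaPOZ, though none passed. The 8 neutrophil markers all had negative fold changes (median -2.95, 0 at an unadjusted p under 0.05). Their summed level was 51.0 and 56.2 CPM in B deltaPOZ and 118 and 717 CPM in B wt. The 7 erythroid markers all had positive fold changes (median 3.96, 5 at an unadjusted p under 0.05). The erythroid sum was 11.7 and 209 CPM in B deltaPOZ and 4.71 and 4.47 CPM in B wt. The part of other cells and of cell stage in the Il7r levels was not tested.

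**Figure D3:**
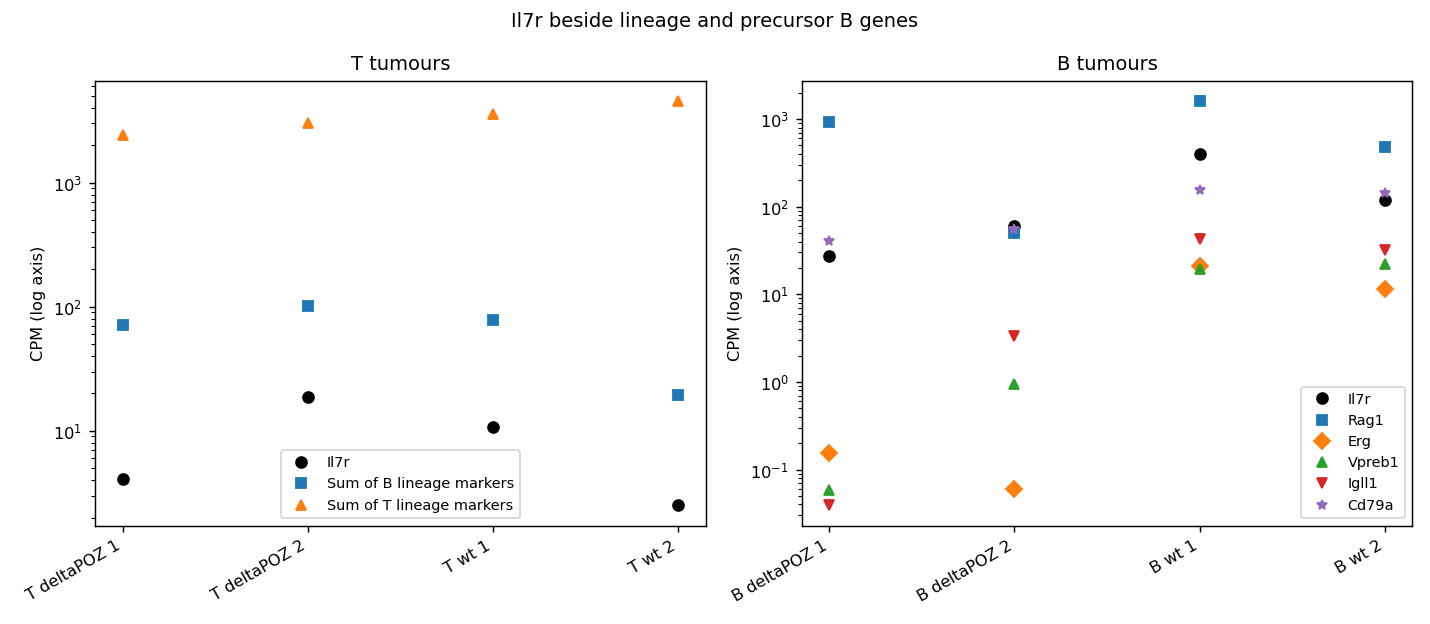
CPM (log axis) per library of Il7r with the summed B lineage and T lineage markers in the T tumours, and of Il7r with single B lineage and precursor B genes in the B tumours. Il7r and the B lineage sum are highest in T deltaPOZ 2 and lowest in T wt 2, and in the B panel Il7r, Erg, Vpreb1, Igll1 and Cd79a are all lower in both deltaPOZ libraries, whereas Rag1 overlaps.

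Il2rg encodes the common gamma chain, which IL-7 shares with IL-2, IL-4, IL-9, IL-15 and IL-21 (ENSMUSG00000031304, GRCm38 chrX:101264378-101268255, minus strand). It read 87.5 and 53.9 CPM in T deltaPOZ, 62.1 and 66.0 in T wt, 18.1 and 26.7 in B deltaPOZ, and 15.4 and 19.7 in B wt. The T libraries all lay above the B libraries, and within each lineage the genotypes overlapped. The log2 fold change of T over B was 1.76 (SE 0.22, edgeR adjusted p = 0.00229), a 3.38-fold higher mean in T. For deltaPOZ over wt it was 0.14 (SE 0.31) in T and 0.35 (SE 0.31) in B, and neither passed. The receptor chains therefore ran in opposite directions between the lineages. The ratio of Il7r to Il2rg in CPM, not corrected for exon length, was 0.0380 to 0.350 in the T libraries. In the B libraries it was 1.51 to 25.7. Per kilobase of exon Il7r lay below Il2rg in B deltaPOZ 1 (5.85 against 7.57) and in every T library. It lay above Il2rg in B deltaPOZ 2 (12.8 against 11.2), B wt 1 (84.6 against 6.44) and B wt 2 (25.9 against 8.25). Il2rg is X-linked and sex followed genotype in B; the 258 tested X genes above 10 CPM had a median deltaPOZ minus wt log2 difference of -0.12 there. In the annotation 30.5% of the Il2rg exon bases also belong to Gm20489 on the same strand, which had at most 1 count. Reads on shared bases may have been set aside as ambiguous, so the Il2rg level and its ratios to Il7r may be affected.

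The kinases split from the rest in not differing detectably by lineage. Jak3 encodes the kinase of the common gamma chain (ENSMUSG00000031805, GRCm38 chr8:71676296-71690575, plus strand) and read 30.9 and 20.7 CPM in T deltaPOZ, 14.4 and 10.6 in T wt, 37.9 and 19.5 in B deltaPOZ, and 17.0 and 18.2 in B wt. Both deltaPOZ libraries lay above both wt libraries in each lineage. This held for 15.4% of all genes in T, for 19.9% in B, and for 593 genes (3.6%) in both. The log2 fold change of deltaPOZ over wt was 1.05 (SE 0.39, edgeR adjusted p = 1) in T and 0.70 (SE 0.38, edgeR adjusted p = 0.502) in B. Their mean was 0.88 (SE 0.27, edgeR adjusted p = 0.505), between 0.63 and 1.08 when each library was left out in turn, and did not pass. T over B gave -0.32 (SE 0.27, edgeR adjusted p = 0.389). On the same strand 7.55% of the Jak3 exon bases overlap Insl3, a hormone gene with at most 3 counts here. Reads on those bases may likewise have been set aside.

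Jak1 encodes the kinase of the alpha chain, which also serves many other cytokine receptors (ENSMUSG00000028530, GRCm38 chr4:101152367-101265282, minus strand). It read 205 and 194 CPM in T deltaPOZ, 277 and 212 in T wt, 234 and 145 in B deltaPOZ, and 212 and 254 in B wt. These are among the most even levels of the 10 genes, with all group means between 189 and 244 CPM. T over B gave 0.07 on the log2 scale (SE 0.19, edgeR adjusted p = 0.792), whose sign turned without B deltaPOZ 2 (-0.08) or T wt 1 (-0.03). For deltaPOZ over wt it was -0.29 (SE 0.26) in T and -0.30 (SE 0.26) in B. Within T both deltaPOZ libraries lay below both wt libraries, as for 17% of all genes. Jak1 lies on chromosome 4, whose 545 genes above 10 CPM had a median deltaPOZ minus wt log2 difference of 0.38 in B. Against the mean of the other B libraries, the chromosome median was 0.46 in B deltaPOZ 1 and 0.05 in B deltaPOZ 2. That median was -0.24 in B wt 1 and -0.29 in B wt 2. The part of this shift in the Jak1 levels was not tested. Over the 33 neighbours of Jak1 within 5 Mb the median log2 fold change in B was 0.14.

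Both STAT5 genes were higher in T tumours. Stat5b (ENSMUSG00000020919, GRCm38 chr11:100780731-100850724, minus strand) read 232 and 267 CPM in T deltaPOZ, 294 and 257 in T wt, 85.8 and 106 in B deltaPOZ, and 89.0 and 85.5 in B wt. Its neighbour Stat5a (ENSMUSG00000004043, chr11:100859351-100885169, plus strand) read 75.5 and 101 CPM in T deltaPOZ, 116 and 97.0 in T wt, 36.9 and 46.7 in B deltaPOZ, and 46.1 and 39.3 in B wt. Both encode closely related factors that carry the signal to the nucleus, and their libraries overlapped between genotypes in each lineage. The log2 fold change of T over B was 1.52 (SE 0.13, edgeR adjusted p = 0.000672) for Stat5b and 1.20 (SE 0.17, edgeR adjusted p = 0.00300) for Stat5a. The call of Stat5a was lost without the 3 libraries (0.94, edgeR adjusted p = 0.101). For deltaPOZ over wt, Stat5b gave -0.14 (SE 0.18) in T and 0.14 (SE 0.18) in B, and Stat5a -0.27 (SE 0.23) in T and -0.03 (SE 0.23) in B.

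Per kilobase of exon Stat5b exceeded Stat5a 3.25 to 3.96-fold in the T libraries and 2.49 to 2.99-fold in the B libraries. The paralogs share 608 stretches of 50 bases, 8.21% of those in Stat5a and 11% of those in Stat5b, and reads from such stretches may be lost or split between them. The remaining 44 pairs among the 10 genes share none.

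All 4 feedback inhibitors differed between the lineages, and of the 10 genes Cish had the largest fold change. Cish encodes CIS, which binds activated cytokine receptors and competes with STAT5 (ENSMUSG00000032578, GRCm38 chr9:107296026-107302784, plus strand). It read 10.9 and 12.8 CPM in T deltaPOZ, 18.4 and 19.5 in T wt, 0.468 and 0.179 in B deltaPOZ, and 0.171 and 0.400 in B wt. The T values rest on 596 to 1083 counts and the B values on 9 to 24, which is above the 3 counts taken as the limit of detection. The log2 fold change of T over B was 5.62 (SE 0.46, edgeR adjusted p = 0.000610), a 50.6-fold higher mean in T, and ranged from 5.35 to 6.02 when each library was left out. Within T both deltaPOZ libraries lay below both wt libraries, as for 17% of all genes. The log2 fold change there was -0.68 (SE 0.53, edgeR adjusted p = 1), against 0.19 (SE 0.59, edgeR adjusted p = 0.926) in B, and neither passed.

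Socs1 encodes an inhibitor that blocks JAK kinases directly (ENSMUSG00000038037, GRCm38 chr16:10782240-10785536, minus strand). It read 7.15 and 23.0 CPM in T deltaPOZ, 16.6 and 29.1 in T wt, 3.0 and 1.95 in B deltaPOZ, and 3.15 and 1.29 in B wt. All T libraries lay above all B libraries, and genotypes overlapped in both lineages. T over B gave 2.98 on the log2 scale (SE 0.51, edgeR adjusted p = 0.00623), or 8.08-fold in the means, and 2.35 without the 3 libraries (edgeR adjusted p = 0.0618). For deltaPOZ over wt it was -0.60 (SE 0.67, edgeR adjusted p = 1) in T and 0.16 (SE 0.68, edgeR adjusted p = 0.953) in B, and both signs turned when single libraries were left out, the T value without T deltaPOZ 1 (0.01) and the B value without B deltaPOZ 1 (-0.13) or B wt 2 (-0.28). At this spread no deltaPOZ difference in Socs1 was detectable in either direction.

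Socs3 encodes an inhibitor best known for acting on receptors of the IL-6 family (ENSMUSG00000053113, GRCm38 chr11:117966079-117970047, minus strand). It read 8.34 and 26.2 CPM in T deltaPOZ, 12.6 and 17.7 in T wt, 2.22 and 1.32 in B deltaPOZ, and 3.82 and 4.40 in B wt. Both B deltaPOZ libraries lay below both B wt libraries, as for 19.1% of all genes, while the T genotypes overlapped. T over B gave 2.58 on the log2 scale (SE 0.43, edgeR adjusted p = 0.00540), and 2.2 without the 3 libraries (edgeR adjusted p = 0.0845). For deltaPOZ over wt it was 0.19 (SE 0.57, edgeR adjusted p = 1) in T, a sign that turned without T deltaPOZ 2 (-0.86) or T wt 1 (-0.04), and -1.21 (SE 0.58, edgeR adjusted p = 0.453) in B.

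Socs2 encodes an inhibitor best known for restraining growth hormone signalling (ENSMUSG00000020027, GRCm38 chr10:95385362-95417180, minus strand). It read 0.385 and 1.71 CPM in T deltaPOZ, 1.10 and 1.21 in T wt, 5.05 and 12.9 in B deltaPOZ, and 15.9 and 3.87 in B wt. It was the one inhibitor of the 4 that was lower in T, with a log2 fold change of T over B of -3.10 (SE 0.69, edgeR adjusted p = 0.0150) and an 8.59-fold higher mean in B. This call was lost without T wt 1 (edgeR adjusted p = 0.0605) or T wt 2 (edgeR adjusted p = 0.0555); the fold change was -2.42 without B wt 1, -3.82 without T deltaPOZ 2, and -4.16 without the 3 libraries. For deltaPOZ over wt it was -0.14 in T (SE 0.92) and in B (SE 0.90).

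Set against each other per kilobase of exon, the 4 inhibitors had a different make-up in each lineage. Socs2 made up 0.57 to 0.934% of their summed level in the T libraries and 16.7 to 54.0% in the B libraries, and Cish made up 10.4 to 24.0% in T and 0.649 to 3.03% in B. Socs1 made up 34.7 to 51.9% in T and 18.2 to 42.9% in B, and Socs3 made up 31.7 to 47.3% in T and 18.1 to 62.6% in B, so the shares of these genes overlapped. The erythroid marker sum moved with lineage in the same direction as Socs1, Socs3 and Cish. It stood at 6015 and 9904 CPM in T deltaPOZ and at 3409 and 17949 CPM in T wt. Of the T libraries T wt 2 was highest and T deltaPOZ 2 second in the erythroid sum and in Socs1, while these libraries were second and highest in Socs3. Cish was highest in T wt 2 and second in T wt 1, which had the lowest erythroid sum. The part of erythroid cells in these levels was not tested.

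**Figure D4:**
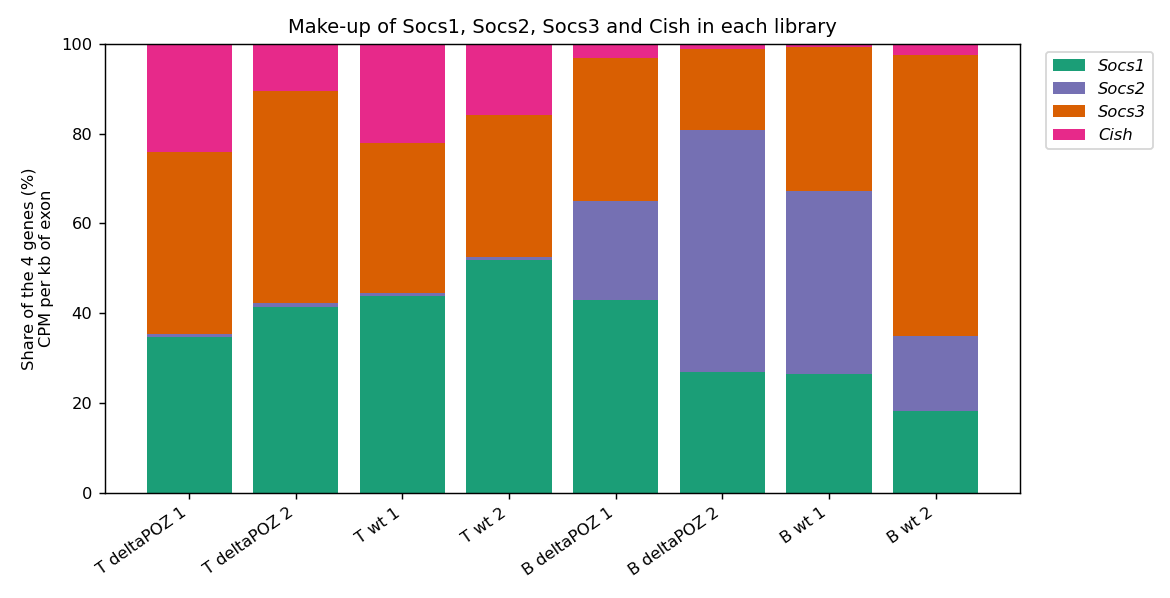
Share (%) of Socs1, Socs2, Socs3 and Cish in their summed CPM per kilobase of exon, by library. Socs2 is a thin band below 1% in the 4 T libraries and a wide one, 16.7 to 54.0%, in the 4 B libraries, while Cish shows the reverse.

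STAT5 binds the palindrome TTCNNNGAA, and windows of 300 bases around gene starts (250 before and 50 after; RefSeq, GRCm38.p6) were searched for it on both strands, which for a palindrome is 1 search. Such windows were given for 9 of the 10 genes, Socs2 being the other. They numbered 11, as Stat5a and Stat5b had more than 1. The letters occurred in 3 of the 11 windows, those of Il7r, Socs3 and Cish. Il7r held them once (TTCAGGGAA, 142 bases before the start) and Socs3 once (TTCTTAGAA, 154 bases before the start). Cish held them at positions 1 and 12 counted from the start (TTCCTGGAA and TTCTTGGAA). Of all 32851 windows, 2726 (8.30%) hold a match and 150 (0.457%) hold more than 1. The stretches of Cish and Socs3 are shown because the rule was to show Cish and the Socs genes that hold a match, whatever their direction between lineages. Each covers 170 bases before the RefSeq start and 20 after it, with the matches in capitals. A match is a description of the letters and not evidence of binding.
Cish, chr9:107296489-107296678, plus strand: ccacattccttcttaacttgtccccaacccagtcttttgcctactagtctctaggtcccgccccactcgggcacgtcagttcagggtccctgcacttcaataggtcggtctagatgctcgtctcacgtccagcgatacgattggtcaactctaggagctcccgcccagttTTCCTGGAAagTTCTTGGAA
Socs3, chr11:117969347-117969536, minus strand: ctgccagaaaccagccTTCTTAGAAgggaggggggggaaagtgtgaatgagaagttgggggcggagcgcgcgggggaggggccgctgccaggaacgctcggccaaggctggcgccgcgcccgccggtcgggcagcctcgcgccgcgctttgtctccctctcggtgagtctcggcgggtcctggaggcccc
The Cish stretch ends with its pair of matches, and the single Socs3 match lies near the far end of its stretch. The Cish gene of the annotation used for names begins further upstream, at chr9:107296026, so its RefSeq start lies inside that gene. The same holds for Socs3, which begins there at chr11:117970047, and for Il7r, which begins at chr15:9530176. The Socs3 and Il7r matches therefore also lie inside those annotated genes.

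Between genes, mean levels per kilobase of exon set Stat5b, Jak1 and Il2rg highest in T tumours. Stat5b stood at 45.1 CPM per kb in T deltaPOZ, 49.8 in T wt, 17.3 in B deltaPOZ and 15.8 in B wt, and Jak1 at 27.6 in T deltaPOZ, 33.8 in T wt, 26.2 in B deltaPOZ and 32.3 in B wt. In B wt the highest mean of the 10 genes was that of Il7r (55.2 CPM per kb). That rank rests on B wt 1, where Il7r stood at 84.6 and Jak1 at 29.3 CPM per kb, since in B wt 2 Il7r (25.9) lay below Jak1 (35.2). In B deltaPOZ Il7r stood at 9.33, between Il2rg (9.38) and Stat5a (5.86). In the T groups Il7r stood at 2.46 in T deltaPOZ and 1.41 in T wt, below all the genes but Socs2 in T wt (0.121) and in T deltaPOZ below all but Socs2 (0.110) and Cish (1.85). The lowest in both B groups was Cish, at 0.0504 in B deltaPOZ and 0.0445 in B wt.

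The genes whose pattern over the 8 libraries was most like that of Il7r were sought among 9691 protein coding genes with a mean of at least 5 CPM, by the root mean square difference of centred log2 CPM. They were Dok3 (0.69), Ago4 (0.71) and St14 (0.72). Dok3, an adaptor protein gene that restrains B cell receptor signalling, read 5.09 and 5.40 CPM in T deltaPOZ, 5.98 and 1.86 in T wt, 38.0 and 53.0 in B deltaPOZ, and 199 and 72.4 in B wt. Socs2 was the nearest of the other 9 pathway genes (1.20, rank 93). For Socs1 the nearest were Calcoco1 (0.28), Camkk1 (0.31) and Abcb4 (0.39), and the nearest pathway gene was Socs3 (0.74, rank 96). Lineage, run and the tag Notch are shared by all these patterns.

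Other genes of the pathway were taken from 8 lists of 53 genes. Of the 51 that were tested, 19 (37.3%) were higher and 5 (9.8%) lower in T than in B tumours, against 19.3% and 16% of all genes. The single lists are small, and their counts below are read against those shares. Of the ligands IL-7 and TSLP, Il7 read at most 0.289 CPM and Tslp at most 0.108 CPM in any library, and neither was tested. Of the other receptor chains that pair with the gamma chain, 4 of 6 were higher and 1 was lower in T than in B tumours. Il2ra, the alpha chain of the IL-2 receptor and itself a STAT5 target, read 471 and 604 CPM in T deltaPOZ, 436 and 391 in T wt, 0.293 and 0.797 in B deltaPOZ, and 1.12 and 0.600 in B wt. Its log2 fold change of T over B was 9.42 (SE 0.41, edgeR adjusted p = 0.000130), larger than that of any of the 10 genes. Il9r (2.83), Il2rb (2.17) and Il21r (2.11) were also higher, and Il15ra was lower (-0.86, edgeR adjusted p = 0.0375).

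Among kinases, STAT and SOCS genes outside the 10, those that passed were higher in T. Jak2, a kinase of single-chain receptors such as that for erythropoietin, was higher in T by 1.70 on the log2 scale (SE 0.21, edgeR adjusted p = 0.00212), and Tyk2 did not pass (0.34). Among the other STAT genes Stat3 (1.14), which acts downstream of the IL-6 receptor family, was higher, and 0 were lower. Among the other SOCS genes 2 of 4 were higher, Socs5 (1.55) and Socs4 (0.55), and 0 were lower. Of 12 other inhibitors of cytokine signalling 3 were higher, the ubiquitin ligase gene Cbl (2.42), the CD45 phosphatase gene Ptprc (1.71) and the phosphatase gene Ptpn1 (0.49). The adaptor gene Sh2b3, whose protein restrains JAK2, was lower (-1.0, edgeR adjusted p = 0.0102).

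Of 12 genes known as STAT5 targets 4 were higher in T and 1 was lower, together near the 35.3% of all genes that passed. Bcl2l1, the survival gene that encodes BCL-XL, read 53.3 and 66.8 CPM in T deltaPOZ, 52.4 and 134 in T wt, 5.13 and 3.09 in B deltaPOZ, and 12 and 9.83 in B wt. Its log2 fold change of T over B was 3.48 (SE 0.36, edgeR adjusted p = 0.00120), and its order over the T libraries was that of the erythroid sum, whose part was not tested. Bcl6 (2.30), Pim1 (1.74) and the cyclin gene Ccnd3 (1.47) were also higher, whereas Myc was lower (-2.05, SE 0.21, edgeR adjusted p = 0.00117). Pim1 is named beyond the rule of 4 genes a list, because the count would otherwise be incomplete. Of 10 genes known to regulate Il7r transcription 3 were higher, Foxo3 (2.05), Runx1 (1.79) and Ikzf1 (1.52), likewise with 1 named beyond the rule. Spi1, which encodes PU.1 and drives Il7r in B cell precursors, was lower in T (-2.63, SE 0.36, edgeR adjusted p = 0.00290), as was Foxp1 (-1.90).

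For deltaPOZ against wt, 0 genes of the 8 lists passed by edgeR in T or in B. At an unadjusted p under 0.05 lay 0 genes of the lists in T and 7 of 51 in B (13.7%), a share near the 12.1% of all genes, so the 7 are given as values only. Jak2, which read 32.3 and 17.6 CPM in B deltaPOZ against 51.3 and 54.8 in B wt, had a log2 fold change of -1.09 in B (SE 0.29, edgeR adjusted p = 0.279). Sh2b3, at 33.7 and 42.0 CPM in B deltaPOZ against 98.2 and 62.7 in B wt, had one of -1.09 (SE 0.28, edgeR adjusted p = 0.273). The others were Socs6 (-1.24), Bcl2l1 (-1.41), Ccnd3 (-1.03), Socs5 (-0.94) and Pias2 (-0.43), all negative with edgeR adjusted p from 0.344 to 0.395. The list medians in B ran from -0.81 (the list with 1 tested gene) to 0.11 (the other receptors of the gamma chain), against -0.01 over all genes. Of the 12 other inhibitors 11 had negative fold changes in B, with a median of -0.18, and 2 lay at an unadjusted p under 0.05. The share of negative fold changes over all genes was not taken, so no weight is put on that count.

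In T the smallest p of the lists belonged to Bcl6 (-1.14 ± 0.57, log2 fold change ± SE) and Ptpn6 (0.55 ± 0.28), both with an edgeR adjusted p = 1. Ptpn6 encodes the phosphatase SHP-1. The genes with the smallest p in the remaining lists were Il9r (1.18) and Il21r (-0.98) among receptors, Stat2 (-0.48) among STAT genes, and Ets1 (-0.53) and Runx1 (-0.54) among regulators of Il7r. The corresponding values in B were Il21r (-1.50) and Il15ra (0.69), Stat4 (-1.32), and Foxo1 (-0.80) and Spi1 (-0.50). Crlf2, the TSLP receptor chain that pairs with the IL-7 receptor alpha chain, gave -0.14 in T and -0.81 in B. None of these values passed.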

How the data were processed

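The data are counts per gene for 8 libraries, used as deposited. Per the submitters' processing notes the authors aligned reads to mm10/GRCm38 with TopHat2 2.0.10, used SAMtools and counted with HTSeq, and DESeq is also named. Per the labels' protocols libraries were made with a TruSeq Stranded mRNA kit. Which annotation release, strand setting and rule for ambiguous reads were used is not given in the sources used here. No-feature counts (30.4 to 39.3% of gene, no-feature and ambiguous counts) and ambiguous counts (0.471 to 0.554%) were left out. Names and positions came from GENCODE M21, which held 97.7% of the 41214 identifiers.

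Scaling used TMM factors, and low genes were removed by filterByExpr. A single edgeR 4.0.16 model with a mean for each group covered the 8 libraries (glmQLFit and glmQLFTest, 4 residual degrees of freedom). Benjamini-Hochberg adjustment ran over the 16456 genes kept, and a gene was called at an adjusted p under 0.05. Dividing the fold change by the square root of F gave the SE. DESeq2 1.42.0 and limma 3.58.1 (voom) were alternatives, as were median-of-ratios size factors, filters of 10 counts in total or 5 CPM in 2 libraries, each lineage alone, calling at 0.1, and fits without each library. A fit without 3 libraries (B wt 2, T wt 1, T deltaPOZ 2) was added after seeing the data. R 4.3.3, Python 3.11.15, pandas 2.3.3, NumPy 2.4.6 and matplotlib 3.10.9 were used, and the code was tested on simulated data.

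The genes and lists were chosen with earlier results of these data known. Named genes are the 10 pathway genes and Zbtb17. Of each of 8 lists, up to 4 genes with the smallest p among those that passed are named for each comparison, or, for deltaPOZ against wt, the 2 with the smallest p. The 3 genes most like Il7r and Socs1 are also named, compared on centred log2 CPM with a prior count of 2. Markers of other cells came from 9 lists. Some genes of the lists are not reported here by name. Replicate numbers only name the libraries.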

Additional observations from a re-analysis of the deposited data

Results flagged for a closer look

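In 3 genes of the pathway lists, both deltaPOZ libraries lay on one side of wt in T and on the other side in B. They make up 5.88% of the 51 tested genes of the lists, and 4.64% of all tested genes did so. They were Socs5, an inhibitor of the SOCS family, Il15ra, the alpha chain of the IL-15 receptor, and Pias4, an inhibitor of STAT factors. The difference between the effects in T and in B was tested in edgeR over all genes and passed for none of them.

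Socs5 read 8.08 and 8.49 CPM in T deltaPOZ against 7.26 and 5.26 in T wt, and 1.64 and 1.91 CPM in B deltaPOZ against 3.13 and 3.69 in B wt. Its effect in T minus that in B was 1.34 on the log2 scale (edgeR adjusted p = 0.776). Il15ra read 4.82 and 5.83 CPM in T deltaPOZ against 5.87 and 6.87 in T wt, and 14.3 and 12.6 CPM in B deltaPOZ against 10.3 and 6.38 in B wt. Its effect in T minus that in B was -0.95 (edgeR adjusted p = 0.816). Pias4 read 22.9 and 23.0 CPM in T deltaPOZ against 24.0 and 27.5 in T wt, and 28.6 and 30.6 CPM in B deltaPOZ against 26.5 and 25.2 in B wt. Its effect in T minus that in B was -0.37 (edgeR adjusted p = 0.877).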

How the results depend on the processing

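The counts of pathway genes called were steady across the alternatives run, except for T over B without the 3 doubted libraries. For deltaPOZ against wt, in T, in B, on average and in the difference, 0 of the 10 were called under every alternative. For T over B 8 were called under every alternative but 2 kinds: 5 without the 3 doubted libraries, a fit with 1 residual degree of freedom, and 7 to 8 when each library was left out. Of 468 fold changes under alternatives, 442 kept direction and side of the threshold, 5 were no longer past it, and 21 reversed, all of them past it in neither fit.

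Counts over all genes moved more. For deltaPOZ against wt in B, 1 gene was called by edgeR, 688 by DESeq2, 6 by limma-voom, 6 with B fitted alone, 9 with the filter of 5 CPM, 39 at a threshold of 0.1, and 0 to 9 without single libraries. In T 0 were called by edgeR and 49 by DESeq2. For the average the counts were 0 by edgeR, 318 by DESeq2, 1 at a threshold of 0.1 and 0 to 5 without single libraries, and for the difference between lineages 0 by edgeR, 227 by DESeq2 and 0 to 4. For T over B 5801 genes were called, against 1312 without the 3 doubted libraries and 3621 to 4900 without single libraries, the lowest without T deltaPOZ 2 (3621) and T wt 1 (3840). The cause was not tested.

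Outside the fits without 1 library, deltaPOZ over wt reversed for Stat5a in B with the filter of 10 counts (0.02), and without the 3 doubted libraries for Socs1 in B (-0.35) and Socs3 in T (-1.11). Without single libraries the log2 fold change in T ran from -0.67 to 2.19 for Il7r, -0.25 to 0.45 for Il2rg, -1.68 to 0.01 for Socs1, -1.57 to 0.56 for Socs2 and -0.86 to 0.78 for Socs3. In B it ran from -0.63 to 0 for Jak1, -0.21 to 0.18 for Stat5a, -0.03 to 0.34 for Stat5b, -0.28 to 0.94 for Socs1, -0.97 to 1.22 for Socs2 and -0.60 to 0.98 for Cish. For T over B that of Jak1 ran from -0.08 to 0.24. Where a fit leaves 1 library in a group, that library is assumed to vary like the others.

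No paired analysis was possible because the labels give no replicate numbers and no mouse gave 2 libraries. Cish in B (9 to 24 counts) and Socs2 in T (21 to 103 counts) rest on few counts.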
